A study of Mus musculus with 6 samples.

Results

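Most genes described here make cholesterol and fatty acids or move cholesterol out of the cell. They were taken from a list of 38 human gene symbols. Kept apart in it were 31 known targets of the SREBP transcription factors, 4 genes of the SREBP control machinery and 3 called efflux genes. These 3 are the pumps ABCA1 and ABCG1 and the ubiquitin ligase MYLIP, which acts on lipoprotein receptors and is no pump itself. Of the 38 genes, 35 had a probe set assigned to 1 gene, among 19775 such genes on the array. A mean log2 level of at least 4 was required, and 32 of the 38 genes passed it, against 10271 genes of the whole array. The arrays were made from NCI-H2228 tumours, a human lung adenocarcinoma line driven by the EML4-ALK fusion, here 1 line grown under the skin of SCID mice, a strain that lacks mature T and B cells. All animals carried such a tumour and were dosed by mouth, either with vehicle alone or with CH5424802, an ALK kinase inhibitor later named alectinib, at 4 or 20 mg/kg, and the tumours were taken 6 h later, with 2 arrays for each of the 3 groups. Ages are not given in the sources used here. Nor do the labels state whether both arrays of a group are from different mice, and the p-values therefore reflect array-to-array spread that may be technical.

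At 20 mg/kg, ABCA1, the pump that passes cholesterol to apolipoprotein A-I, rose 2.34-fold against vehicle, and ELOVL6, an elongase of long-chain fatty acids, fell 1.43-fold. These were the 2 of 32 tested members (6.25%) past an adjusted p of 0.05, a share near the 4.33% of all tested genes. The ELOVL6 values were equal within each dosed group, which leaves its test almost no spread, and its next probe set changed by -0.03. In all, 23 of the 32 members had a negative log2 change, beside 5075 of all 10271 tested genes. The 23 included FASN at -1.41 and SQLE at -1.08, which did not pass the test, and MVK, which was practically level. The median over the 26 tested SREBP targets was -0.33 beside 0.00 over all tested genes. By their brightest probe sets, all 3 efflux genes had higher values in both 20 mg/kg arrays than in both vehicle arrays. So had 24.5% of all tested genes, and another ABCG1 probe set had overlapping arrays and a change of 0.02. At 4 mg/kg no member passed the test.

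Cells sense cholesterol in the membrane of the endoplasmic reticulum. When it is scarce, SCAP escorts the SREBP precursors to the Golgi, where they are cut, and the released fragments switch on the genes of cholesterol synthesis and fatty acid synthesis. When it is plentiful, INSIG proteins hold SCAP back, while oxysterols activate the LXR receptors, which raise the efflux pumps ABCA1 and ABCG1 and the ubiquitin ligase MYLIP. Both arms are active in lung epithelium, where lipid synthesis also serves surfactant, and growth factor signalling through PI3K, AKT and mTOR is known to act on SREBP.

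The deposited values are intensities on a linear scale with a lowest value of 4.578, called the floor here. All changes below are differences of log2 intensity, each with limma's moderated standard error, and p-values were adjusted over all 10271 tested genes. The intensity of DUSP6, a gene that ERK signalling switches on, fell by 5.47 log2 units at 20 mg/kg (adjusted p = 0.0104). This checks the labels of the 20 mg/kg arrays. At 4 mg/kg against vehicle the DUSP6 change was -0.43 (adjusted p = 0.298), which does not tell those 2 labels apart. The labels give mouse as the organism, whereas the array carries human probe sets, and how mouse transcripts contribute was not tested. All 9 epithelial markers were measured, and their summed intensity was 82240 to 91390 with vehicle, 88180 to 90240 at 4 mg/kg and 71180 to 80690 at 20 mg/kg. KRT18 was the 1 of them that passed the test at 20 mg/kg, with a log2 change of -1.54 (adjusted p = 0.0416). KRT7 (-0.92), KRT8 (-0.88), SFTPB (-0.45), KRT19 (-0.34) and NAPSA (-0.06) were also negative there. EPCAM (0.50), CDH1 (0.23) and NKX2-1 (0.10) were positive, so the epithelial markers did not move together. All 5 adipocyte markers (ADIPOQ, PLIN1, FABP4, LEP and CIDEC) lay within 1 log2 unit of the floor in every array, as did PTPRC and CSF1R of 4 measured leukocyte markers. The other two, CD14 at 10.85 to 15.02 and AIF1 at 22.18 to 23.97, were low. Of the fibroblast markers 4 of 6 and of the endothelial markers 2 of 4 were tested, with the rest within 1 log2 unit of the floor (LUM, PDGFRB, CDH5 and VWF), and none of those tested passed in any comparison. The summed fibroblast signal, most of it COL1A1, was 36010 to 38570 with vehicle, 35900 to 37140 at the lower dose and 35250 to 39710 at the higher. The summed endothelial signal was 497.2 to 547.1, 445.7 to 552.2 and 497.1 to 506.1 in the same order. The tumour line is human and the host is a mouse, so human probe sets may miss transcripts of host cells. The adipocyte, leukocyte, fibroblast and endothelial values therefore cannot show whether such host cells were absent, present or changed. In bulk tumour RNA, fewer cells of a type and less RNA per cell cannot be told apart. Vehicle replicate 2 stood furthest out on the first principal component, which held 58.1% of the variance. Its probe set for the 5′ end of 18S ribosomal RNA read 4058, against 1713 in vehicle replicate 1 and 374.2 to 637.1 in the treated arrays. The part of 18S signal in the results below was not tested. Values without vehicle replicate 2 are given for genes past the threshold at 20 mg/kg and for the medians of the SREBP targets and of the main roles.

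The first question was how far the whole list differed by dose. Across all tested genes, 4.33% passed an adjusted p of 0.05 for 20 mg/kg against vehicle, and among members 2 of 32 (6.25%) did, 1 in each direction. A looser description is non-overlap, in which both arrays of a group lie above, or below, both arrays of the other. At 20 mg/kg, 18 of the 32 members (56.2%) lay below vehicle in this way, beside 25.9% of all genes, and 7 (21.9%) lay above, beside 24.5% of all genes. With all arrays and the brightest probe sets, the share below vehicle was thus over 2 times the background share, and the share above was near it. The members were chosen with earlier results of these data known, so this excess is a description only. Without vehicle replicate 2, 18 members lay below, beside 33.7% of all genes. When probe sets that may also bind other transcripts (names ending in _s_at or _x_at) were left out, 8 of 21 members lay below, beside 22.3% of all genes. Among SREBP targets, 17 of 26 lay below vehicle and 3 above, SC5D, INSIG1 and ELOVL5. The median over the SREBP targets was -0.28 without vehicle replicate 2.

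**Figure D1:**
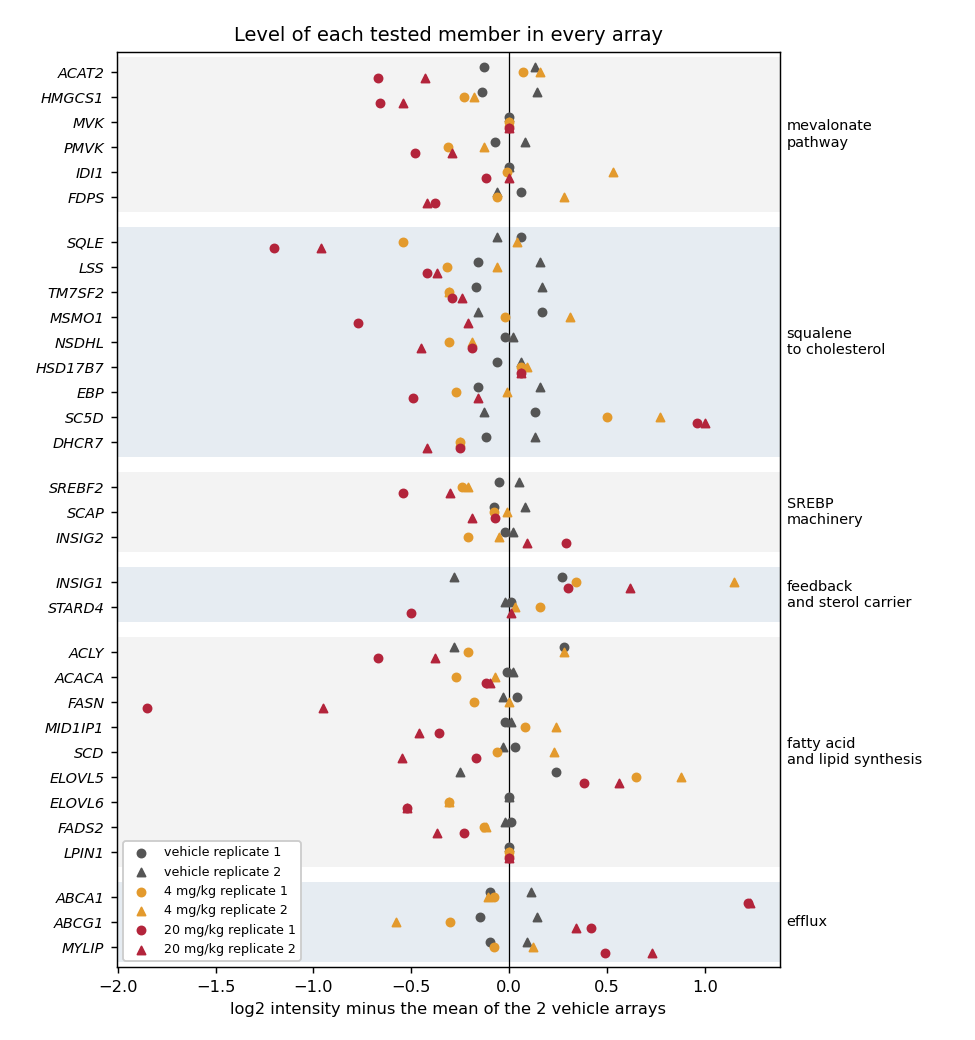
Log2 intensity of each tested member (rows, grouped by role) in each of the 6 arrays, minus the mean of the 2 vehicle arrays, with colour for the dose group and circles and triangles for replicates 1 and 2. The 20 mg/kg points of ABCA1, ABCG1 and MYLIP lie to the right of both vehicle points, those of SQLE and FASN lie furthest to the left, and those of SC5D lie to the right, against most of its pathway.

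At 4 mg/kg, 0.0584% of all genes passed the test and none of the 32 members did. The smallest adjusted p among members was 0.0728 by limma. An unadjusted limma p under 0.05 was seen in 3 of 32 members, of which 1 was lower and 2 were higher. Of all 10271 tested genes, 489 were lower and 1256 higher at that unadjusted p. Non-overlap below vehicle was seen in 11 of 32 members (34.4%), beside 14.8% of all genes, and above vehicle in 5 (15.6%), beside 22.8%. After each array was centred on its median, 19 members lay below and 4 above, beside 49.1% and 18% of all genes. Between the doses, 0.37% of all genes passed and 1 member, ABCA1, did. Here 15 members (46.9%) were lower at 20 than at 4 mg/kg without overlap, beside 22.8% of all genes, and 6 (18.8%) were higher, beside 13.6%. The comparisons share arrays, and so their values are not independent of each other.

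A stepwise order, in which all 3 groups are separate and 4 mg/kg lies between the others, was found downward in HMGCS1, SREBF2, ELOVL6 and FADS2, 4 of 32 members (12.5%), beside 5.24% of all genes. Upward it was found in SC5D (3.12% of members), beside 4.61% of all genes. Median changes of the SREBP targets were 0.00 at 4 mg/kg against vehicle and -0.24 at 20 against 4 mg/kg. For the 3 efflux genes the corresponding medians were -0.10 and 0.82.

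**Figure D2:**
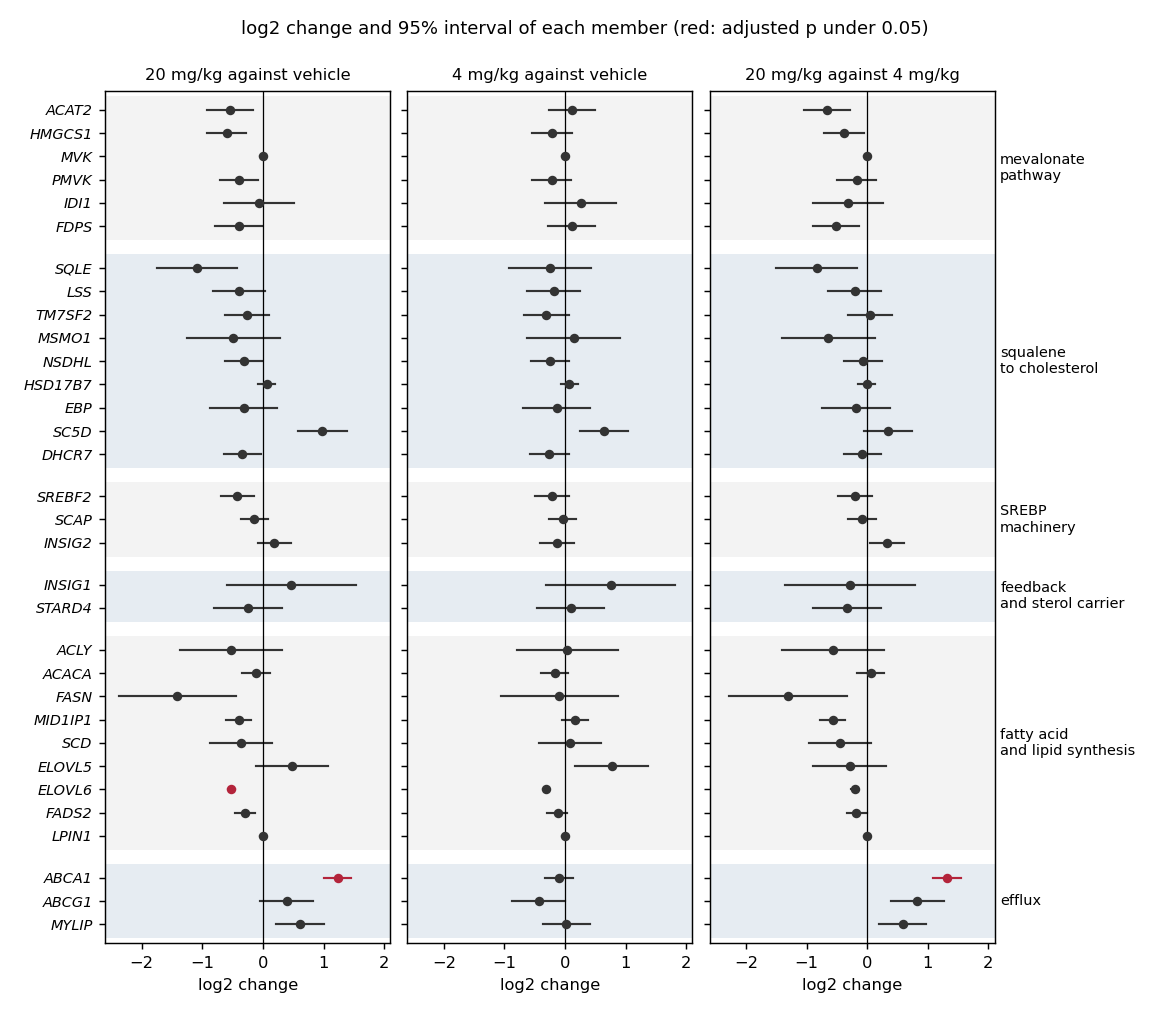
Log2 change of each tested member (rows, grouped by role) in the 3 comparisons, 1 panel each, as points with the 95% confidence interval of the limma fit as bars, in red where the adjusted p was under 0.05. ABCA1 at 1.23 and ELOVL6 at -0.52 are red for 20 mg/kg against vehicle and ABCA1 at 1.32 for 20 against 4 mg/kg, none is red for 4 mg/kg against vehicle, and the intervals of FASN, from -2.37 to -0.44, and SQLE, from -1.75 to -0.42, are wide.

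Among the efflux genes ABCA1 had the clearest separation. Its intensity was 628.8 and 727.6 with vehicle, 639.5 and 626.1 after 4 mg/kg, and 1578 and 1589 after 20 mg/kg. The 20 mg/kg arrays lay above all other arrays, and the 4 mg/kg arrays reached into the vehicle range. The log2 change was 1.23 at 20 mg/kg against vehicle (SE 0.080, 95% confidence interval 1.0 to 1.46, adjusted p = 0.021) and 1.32 against 4 mg/kg (interval 1.09 to 1.55, adjusted p = 0.0431). At 4 mg/kg against vehicle it was -0.10 (adjusted p = 0.576). A second ABCA1 probe set read 341.5 and 305.1 with vehicle, 247.2 and 404.1 after 4 mg/kg, and 978.6 and 938.2 after 20 mg/kg, a change of 1.57 at the higher dose that did not pass when this set stood for the gene (adjusted p = 0.0889). Without vehicle replicate 2 the change was 1.33 (adjusted p = 0.0386). The call against vehicle was lost when 20 mg/kg replicate 1 (adjusted p = 0.118), its replicate 2 (0.103) or 1 or both 4 mg/kg arrays (0.0682) were left out, and without the level filter (0.0744), while the change was 1.22 or 1.23 in each of these fits. The call was kept in 10 of 18 alternatives. The call of 20 against 4 mg/kg was lost when any 1 array was left out, with adjusted p from 0.0658 to 0.192.

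MYLIP, a ubiquitin ligase that marks lipoprotein receptors for breakdown, read 313.3 and 357.8 with vehicle, 317.3 and 365.6 after 4 mg/kg, and 470.6 and 554.8 after 20 mg/kg. Both 20 mg/kg arrays were above the other 4, with a log2 change of 0.61 (SE 0.136) that did not pass (adjusted p = 0.104). Its other probe set, at 248.5 and 328.8 with vehicle and 479.5 and 472.3 at 20 mg/kg, gave 0.74. ABCG1, which passes cholesterol to HDL particles, read 501.3 and 613.6 with vehicle, 452.6 and 373.0 after 4 mg/kg, and 746.4 and 705.9 after 20 mg/kg. Its 4 mg/kg arrays lay below vehicle and its 20 mg/kg arrays above, with changes of -0.43 (adjusted p = 0.295) and 0.39 (adjusted p = 0.245), and 0.82 between the doses (adjusted p = 0.165). The other ABCG1 probe sets gave 0.02 and 0.50 at 20 mg/kg. Of the efflux genes 1 of 3 therefore passed, and the other two had higher values at 20 mg/kg that did not pass.

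**Figure D3:**
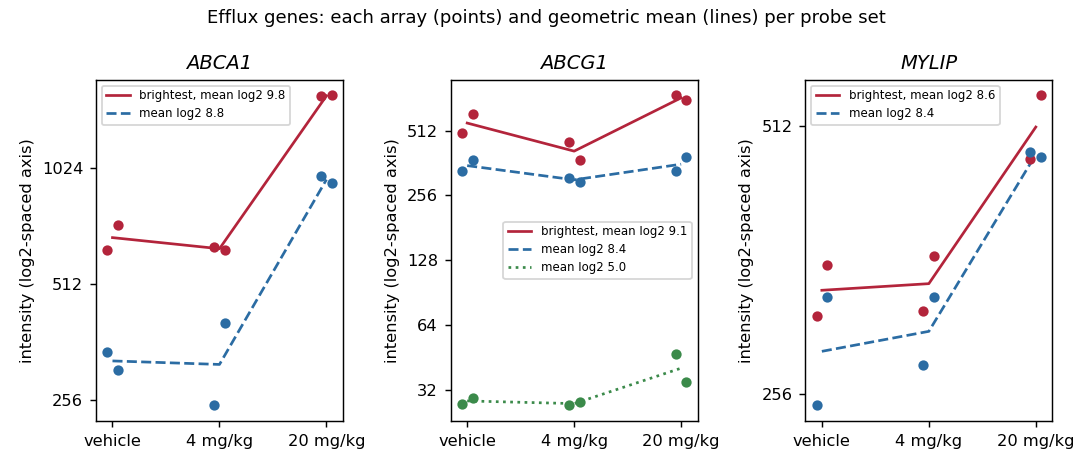
Intensity on a log axis (vertical) by dose group (horizontal) for every probe set of ABCA1, ABCG1 and MYLIP at the level filter, with 1 point per array and lines through the geometric mean of each group. Both ABCA1 probe sets have their 20 mg/kg points above their other points, at 1578 and 1589 for the brighter and 978.6 and 938.2 for the dimmer set, while 1 of the 3 ABCG1 sets barely differs between vehicle and 20 mg/kg.

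The mevalonate pathway, which turns acetyl-CoA into the isoprenoid units of sterols, had 6 tested members. None passed the test at 20 mg/kg, and their median log2 change was -0.40 (-0.37 without vehicle replicate 2). Below vehicle without overlap were 4 of 6, beside 25.9% of all genes. HMGCS1, the HMG-CoA synthase that opens the pathway, read 422.7 and 513.2 with vehicle, 394.9 and 409.5 after 4 mg/kg, and 294.9 and 319.2 after 20 mg/kg. The groups followed the dose without overlap, with a change of -0.60 at 20 mg/kg (SE 0.114, adjusted p = 0.0839). A second HMGCS1 probe set read 134.6 and 116.6, then 200.4 and 269.7, then 78.46 and 134.6, so its 4 mg/kg arrays were the highest and the stepwise order was not seen there.

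ACAT2, which joins acetyl-CoA units at the start of the pathway, read 405.7 and 484.6 with vehicle, 464.1 and 494.0 after 4 mg/kg, and 279.0 and 328.4 after 20 mg/kg. The 20 mg/kg arrays were the lowest, with a change of -0.55 (SE 0.133, adjusted p = 0.118). FDPS, the farnesyl diphosphate synthase, read 1678 and 1541, then 1540 and 1948, then 1236 and 1197, a change of -0.40 (adjusted p = 0.194). PMVK, the phosphomevalonate kinase, had a change of -0.39 (adjusted p = 0.15). Mevalonate kinase, MVK, read 1635 in 5 arrays and 1632 in the other, and the isomerase IDI1 had overlapping arrays and a change of -0.06. A dimmer IDI1 probe set read 145.7 and 120.4 with vehicle and 99.47 and 105.5 after 20 mg/kg, lower without overlap at -0.37.

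Of the enzymes that lead from squalene to cholesterol, 9 were tested and none passed at 20 mg/kg. Their median change was -0.32 (-0.22 without vehicle replicate 2). Below vehicle without overlap were 6 of 9 and above it 1, beside 25.9% and 24.5% of all genes. SQLE, the epoxidase that adds oxygen to squalene and a known slow step of sterol synthesis, read 2596 and 2387 with vehicle, 1715 and 2558 after 4 mg/kg, and 1082 and 1276 after 20 mg/kg. At 20 mg/kg it was below all other arrays, and the 4 mg/kg arrays spread from below the vehicle range into it. The log2 change was -1.08 (SE 0.234, adjusted p = 0.1), and the other SQLE probe sets gave -0.67 and -1.27.

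MSMO1, a demethylase of methylsterols, read 4930 and 3916 with vehicle, 4344 and 5436 after 4 mg/kg, and 2574 and 3803 after 20 mg/kg, a change of -0.49 with a wide error (SE 0.268, adjusted p = 0.386). For LSS, the cyclase that forms lanosterol, the change was -0.39 (adjusted p = 0.239), and for DHCR7, which performs a last reduction to cholesterol, it was -0.34 (adjusted p = 0.185). The second probe sets of LSS and DHCR7 each gave -0.64. NSDHL, a sterol dehydrogenase, gave -0.32 and EBP, the sterol isomerase, also gave -0.32, the latter with overlapping arrays. HSD17B7, a ketoreductase of the same stretch, was near level at 0.06, and TM7SF2, a sterol reductase near the low end of the intensity scale at 26.01 to 36.18, gave -0.26.

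SC5D, the sterol desaturase that acts just before DHCR7, ran against its pathway. It read 2821 and 2350 with vehicle, 3649 and 4385 after 4 mg/kg, and 4992 and 5159 after 20 mg/kg, so that the groups lay in upward order of dose without overlap. Its change was 0.98 at 20 mg/kg (SE 0.139, interval 0.58 to 1.38), just short of the threshold (adjusted p = 0.0553), and 0.64 at 4 mg/kg (adjusted p = 0.182). Another SC5D probe set gave 0.51 at 20 mg/kg.

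The SREBP machinery had 3 tested members and none passed. SREBF2, which encodes the SREBP that mainly drives sterol genes and is its own target, read 367.2 and 393.9 with vehicle, 322.7 and 329.3 after 4 mg/kg, and 261.1 and 308.8 after 20 mg/kg. Its groups followed the dose without overlap, with a change of -0.42 (SE 0.099, adjusted p = 0.112), while its other probe set gave -0.04. INSIG2, a retention protein of SCAP, read 896.6 and 922.0, then 786.5 and 879.0, then 1114 and 965.7, a change of 0.19. SCAP itself read 51.73 and 57.77, then 51.78 and 54.25, then 51.91 and 47.70, a change of -0.14 with overlapping arrays in all 3 groups. SREBF1, the SREBP of fatty acid genes, stayed near the floor at 4.827 to 5.364 and was not tested.

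INSIG1 and STARD4 are SREBP targets that feed back on or carry sterol. INSIG1, the sterol-sensitive SCAP anchor, read 595.2 and 408.3 with vehicle, 626.9 and 1095 after 4 mg/kg, and 610.5 and 760.9 after 20 mg/kg. Its vehicle arrays were the lowest, but the spread within groups was the widest of all members (residual SD 0.417), and the change of 0.47 at 20 mg/kg had an SE of 0.375. Its other probe sets gave 0.03 and -0.08. STARD4, a carrier of cholesterol between membranes, read 137.7 and 134.7, then 151.7 and 138.7, then 96.47 and 137.7, a change of -0.24 that rested on 20 mg/kg replicate 1 and was 0.02 without it.

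Fatty acid and lipid synthesis had 9 tested members, of which ELOVL6 passed at 20 mg/kg. Their median change was 0.00 at 4 mg/kg and -0.36 at 20 mg/kg (-0.39 without vehicle replicate 2). The latter depended on the probe sets, at -0.21 with the next brightest, -0.18 with the mean of all and -0.11 without _s_at and _x_at sets. At the higher dose 7 of 9 lay below vehicle without overlap, beside 25.9% of all genes. ELOVL6 read 104.7 and 104.6 with vehicle, 84.29 in both 4 mg/kg arrays and 73.14 in both 20 mg/kg arrays. The groups lay in downward order of dose, with changes of -0.31 at 4 mg/kg (adjusted p = 0.0728) and -0.52 at 20 mg/kg (SE 0.018, interval -0.57 to -0.46, adjusted p = 0.0104). Equal values in different arrays can come from the summary of probes by median polish, and the standard error here holds almost no spread between arrays. The next ELOVL6 probe set read 29.42 and 28.72, then 28.6 in both, then 28.6 and 28.48, a change of -0.03. The ELOVL6 call was lost with that set (adjusted p = 0.526) and without 20 mg/kg replicate 1 (0.0752) or replicate 2 (0.0697), and kept without vehicle replicate 2 (0.0436).

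FASN, the synthase that builds palmitate, had the lowest change of all members. It read 1059 and 1010 with vehicle, 908.4 and 1030 after 4 mg/kg, and 285.2 and 532.7 after 20 mg/kg. Both 20 mg/kg arrays lay far below the others and apart from each other, with a change of -1.41 (SE 0.338, adjusted p = 0.117) against -0.10 at 4 mg/kg. ACLY, which makes cytosolic acetyl-CoA from citrate, read 4642 and 3149 with vehicle, 3312 and 4655 after 4 mg/kg, and 2394 and 2934 after 20 mg/kg. The 20 mg/kg arrays were the lowest, with a change of -0.53 (SE 0.294, adjusted p = 0.392), and its other probe sets gave -0.54 and -0.51. Thus 3 ACLY probe sets had like changes although the error was wide.

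MID1IP1, an activator of acetyl-CoA carboxylase, read 552.5 and 566.1 with vehicle, 592.3 and 663.6 after 4 mg/kg, and 437.8 and 408.7 after 20 mg/kg. It was above vehicle at the lower dose and below it at the higher, with changes of 0.16 and -0.40 (SE 0.074, adjusted p = 0.0805), and -0.57 between the doses (adjusted p = 0.107). FADS2, a desaturase of polyunsaturated fatty acids, read 144.3 and 141.3, then 130.6 and 131.7, then 122.1 and 110.5, in downward order of dose with a change of -0.30 (adjusted p = 0.0846). SCD, the stearoyl-CoA desaturase, read 2011 and 1918, then 1883 and 2302, then 1746 and 1338, a change of -0.36. The acetyl-CoA carboxylase ACACA gave -0.11, and LPIN1, a phosphatidate phosphatase, read 131.7 in all 6 arrays. Such equal values do not show that LPIN1 was unchanged. A dimmer LPIN1 probe set read 73.34 and 68.18 with vehicle and 61.89 and 63.05 after 20 mg/kg, lower without overlap at -0.18.

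ELOVL5, an elongase of polyunsaturated fatty acids, was the fatty acid gene with higher values after dosing. It read 4126 and 2937 with vehicle, 5499 and 6418 after 4 mg/kg, and 4551 and 5166 after 20 mg/kg, changes of 0.77 and 0.48. Its highest arrays were those of the lower dose, and its dimmer probe sets gave 0.00 and 0.11 at 20 mg/kg. The opposite pattern of ELOVL5 and ELOVL6 is a description of 2 genes, each read by its brightest probe set.

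The remaining members were not tested. MVD, SREBF1 and the acetyl-CoA synthetase ACSS2 lay under the level filter, with mean log2 levels of 2.23, 2.35 and 3.30. The probe sets of CYP51A1 and FADS1 carry several gene names, and FDFT1 was not analysed here.

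Several members are read by more than 1 probe set, which gives a second look at the same arrays. For 17 members at least 2 probe sets reached the level filter, and in 14 of them all sets had the sign of the brightest at 20 mg/kg against vehicle. The exceptions were INSIG1, ELOVL5 and LPIN1. Only the sign was counted, and some of the other sets were near level, at -0.03 for ELOVL6, -0.04 for SREBF2 and 0.02 for ABCG1. The same share over all genes was not computed. Probe sets of a gene share the RNA of each array and are not replicates.

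**Figure D4:**
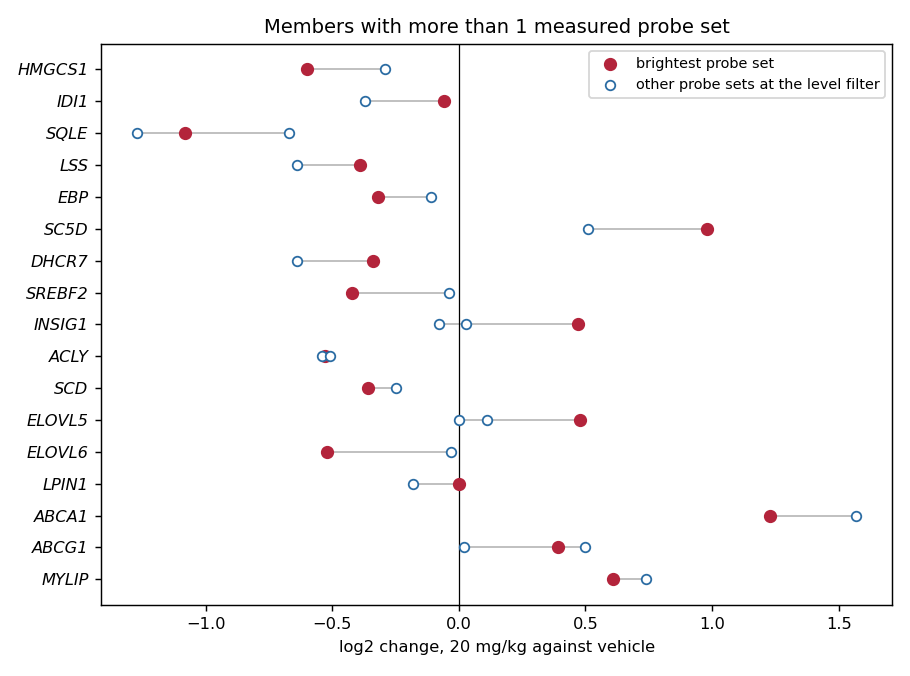
Log2 change at 20 mg/kg against vehicle (horizontal) for the 17 members with several probe sets at the level filter (rows), with the brightest set filled, the others open and a grey line over their range. The ABCA1, SQLE and ACLY sets lie on 1 side of 0 and the ACLY sets almost coincide, while the INSIG1 sets run from -0.08 to 0.47.

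The 2 arrays of a group were offset from each other to different extents. The second 4 mg/kg array read above the first in 21 of 26 SREBP targets (80.8%), beside 62.8% of all genes. The median difference was 0.18 log2 units beside 0.08. These shares were 42.3% beside 47% with vehicle and 65.4% beside 52.6% at 20 mg/kg. Median absolute differences of the targets were 0.12 with vehicle, 0.18 at 4 mg/kg and 0.15 at 20 mg/kg. The median log2 of all tested genes was 8.59 in 4 mg/kg replicate 1 and 8.75 in replicate 2. Without 4 mg/kg replicate 1 the median change of SREBP targets between the doses was -0.32, and without 4 mg/kg replicate 2 it was -0.13. Whether the offset of the 4 mg/kg arrays bears on the 4 mg/kg medians beyond these values was not tested. The widest residual SDs after INSIG1 were those of FASN (0.376) and ACLY (0.327), and those of MVK, ELOVL6 and LPIN1 were 0.001 or less.

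Genes around the pathway were read from 7 further lists. Among 13 tested genes of SREBP processing and sterol sensing none passed at 20 mg/kg, and the largest change was that of PAQR3, a Golgi anchor of SCAP and SREBP, at 1.06 (adjusted p = 0.299). The list's median was 0.29. Above vehicle without overlap were 8 of 13 genes (61.5%) and below it 1 (7.69%), beside 24.5% and 25.9% of all genes. None of 6 LXR receptors, partners and other LXR targets passed. SMPDL3A, an LXR target, read 647.4 and 755.9 with vehicle, 760.5 and 907.7 after 4 mg/kg, and 1311 and 1216 after 20 mg/kg, a change of 0.85 (adjusted p = 0.0623), beside a median of 0.00 for the list.

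Of 15 genes of sterol uptake, trafficking and esterification, GRAMD1C, a carrier of sterol between membranes, was the 1 past the threshold. It read 8.834 and 8.965 with vehicle, within 1 log2 unit of the floor, then 17.36 in both 4 mg/kg arrays, then 49.01 and 97.20 (adjusted p = 0.0447 at 20 mg/kg). Its vehicle and 4 mg/kg arrays alone would not have reached the level filter, so that the difference itself brought the gene into the test. Without the filter its adjusted p was 0.144, and without vehicle replicate 2 it was 0.163. Of 13 genes of the isoprenoid branches, FNTB, a subunit of protein farnesyltransferase, was past the threshold at 0.90 (SE 0.116, adjusted p = 0.0477). It read 14.62 and 15.75 with vehicle, 15.31 and 15.76 after 4 mg/kg, and 25.57 and 31.25 after 20 mg/kg. It too reached the level filter only through the 20 mg/kg arrays, with an adjusted p of 0.149 without the filter and 0.151 without vehicle replicate 2. The 16 genes of glycerolipid synthesis and lipid droplets had a median of -0.17 at 20 mg/kg. Below vehicle without overlap were 9 of them (56.2%) and above it 2 (12.5%), beside 25.9% and 24.5% of all genes, and none passed downward. Of these genes AGPAT2, which makes phosphatidic acid, rose by 0.71 (SE 0.038, adjusted p = 0.016). It read 1121 and 1157 with vehicle, 1129 and 1125 after 4 mg/kg, and 1813 and 1914 after 20 mg/kg, and the difference between the doses also passed at 0.73 (adjusted p = 0.0346). The call against vehicle was lost without vehicle replicate 2 (0.73, adjusted p = 0.0583), without either 4 mg/kg array (0.0562), without 20 mg/kg replicate 1 (0.0752) or replicate 2 (0.0745), and with the next probe set (0.48, adjusted p = 0.223).

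None of 15 genes of fatty acid activation and elongation and none of 16 of fatty acid oxidation passed. The largest changes were those of ACSL1, an acyl-CoA synthetase, at 1.07 (adjusted p = 0.0798) and ACADM, the medium-chain acyl-CoA dehydrogenase, at 0.82 (adjusted p = 0.112). The medians of both lists at 20 mg/kg were -0.03 and 0.03. No gene of the 7 lists passed in the downward direction at 20 mg/kg, and none passed at 4 mg/kg.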

How the data were processed

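RNA of the tumours was measured on 6 arrays, 2 per group. The table the authors deposited holds linear intensity values of 54675 probe sets, and the submitters' processing notes name GCRMA and R 2.10.0. Median polish can give equal values in different arrays, and 39.48% to 40.2% of the probe sets of an array were at the floor of 4.578, where changes are understated. Intensities were converted to log2. The platform's annotation, possibly outdated, named 1 gene for 41097 probe sets, several for 1801 and none for 11777. The brightest single-gene probe set, by its mean over 6 arrays, stood for each gene.

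Genes with a mean log2 of at least 4 entered a linear model of all 6 arrays with 3 contrasts (lmFit and eBayes of limma 3.58.1, R 4.3.3). Tests were two-sided, with Benjamini-Hochberg adjustment over all tested genes and a threshold of 0.05. The fit had 3 residual and 0.723 prior degrees of freedom, so an SE is pooled over the groups, and the number of arrays limits the precision. The median residual SD was 0.1351. The fit was also run on simulated normal values. These held no ties between arrays, so that run cannot show how tied values such as those of ELOVL6 affect the test. Members and lists were chosen with earlier results of these data known. All members may be named, with array values for those past the threshold and for the 3 with the largest change per role at 20 mg/kg (others were added after their values were seen). Of the further lists, genes past the threshold are named, or the one with the largest change. The 18 alternatives covered level filter, probe set choice, normalization, pseudocount, variance model, replicate block and each array left out. Non-overlap counts, role medians and calls of further-list genes under alternatives were added after seeing the data. Some genes are not reported here.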

Additional observations from a re-analysis of the deposited data

How the results depend on the processing

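Under 18 alternatives, 1533 of 1635 member values kept their direction and side of the threshold, 22 lost a call, 40 gained one and 40 changed sign. Most of the 1635 values had no call to lose. ABCA1 kept its call against vehicle in 10 of 18 alternatives and its call between the doses in 7. ELOVL6 kept its call against vehicle at 20 mg/kg in 15 of 18. Causes were not tested. For 20 mg/kg against vehicle, 445 genes and 2 members passed. Genes numbered 57 without the level filter, 207 with the next brightest probe set, 285 without _s_at and _x_at sets, 1536 after quantile normalization, 1958 with centred arrays, 819 without genes tied in all 3 groups, 136 with the 4 compared arrays and 5 to 802 with 1 array left out. Members numbered 1 without the filter, with the next set or with 4 arrays, 5 with the mean of sets, 11 after quantile normalization, 12 with centred arrays and 0 to 4 with 1 array left out. The medians moved to -0.25 for SREBP targets with the mean of sets, and for fatty acid genes to -0.21 (next set), -0.18 (mean of sets) and -0.11 (without _s_at and _x_at sets). For 4 mg/kg against vehicle, 6 genes passed. They numbered 3 without the filter, 41 after quantile normalization, 766 with centred arrays, 2 with a variance trend and 0 to 475 with 1 array left out, and 0 with a mean log2 of at least 6, the next set, the mean of sets, log2(value + 16), without tied genes or with 4 arrays. No member passed there, against 1 without the filter and 0 to 2 with 1 array left out. The SREBP target median moved to 0.10 without _s_at and _x_at sets, -0.10 with centred arrays and -0.10 to 0.01 with 1 array left out. The cholesterol median, -0.14, moved to 0.00 (mean log2 of at least 6), 0.07 (next set), 0.02 (mean of sets), 0.11 (without _s_at and _x_at sets) and -0.24 to 0.00 (1 array left out). For 20 against 4 mg/kg, 38 genes and 1 member passed. Genes numbered 8 without the filter, 20 with the next set, 333 after quantile normalization, 494 with centred arrays, 77 without tied genes, 0 with 4 arrays and 0 to 218 with 1 array left out. Members numbered 0 with the next set, the mean of sets, 4 arrays or any 1 array left out, 2 after quantile normalization or with a variance trend and 6 with centred arrays. Medians moved to -0.14 (SREBP targets, mean of sets; -0.32 to -0.13 with 1 array left out), -0.33 (cholesterol genes, next set or without _s_at and _x_at sets), -0.10 and -0.09 (fatty acid genes, next set and mean of sets). Same-numbered arrays were not paired: their deviations correlated at 0.15, -0.12 and 0.13. In a fit with a replicate block, 93 genes and 2 members passed at 20 mg/kg against vehicle, and 0 and 0 for each of the other comparisons. ABCA1 was not among the members called with the block (adjusted p = 0.0599). The median of INSIG1 and STARD4 at 20 mg/kg, 0.11, ran from -0.09 to 0.32 with 1 array left out.

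Sign changes lay mostly among small changes at 4 mg/kg. With the next set they were HMGCS1 0.89, IDI1 -0.01, EBP 0.23, ACLY -0.10 and SCD -0.22, with the mean of sets HMGCS1 0.34, EBP 0.02, ACLY -0.09 and SCD -0.04, and without _s_at and _x_at sets HMGCS1 0.89 and EBP 0.23. With centred arrays they were HSD17B7 -0.03, STARD4 -0.01, ACLY -0.06, SCD -0.01 and MYLIP -0.07, and after quantile normalization MYLIP -0.05. For 20 against 4 mg/kg they were HSD17B7 0.06 after quantile normalization or with centred arrays, SREBF2 0.02 with the next set or without _s_at and _x_at sets, and ELOVL5 0.04 with the mean of sets. With 1 array left out, members that changed sign had these ranges: at 4 mg/kg ACAT2 -0.02 to 0.24, IDI1 -0.01 to 0.53, FDPS -0.06 to 0.28, SQLE -0.54 to 0.04, MSMO1 -0.02 to 0.31, EBP -0.30 to 0.02, SCAP -0.12 to 0.03, ACLY -0.24 to 0.32, SCD -0.06 to 0.23, ABCA1 -0.20 to 0.01 and MYLIP -0.08 to 0.13, at 20 against 4 mg/kg NSDHL -0.20 to 0.06, INSIG1 -0.68 to 0.12 and ACACA -0.04 to 0.16, and at 20 mg/kg against vehicle STARD4 -0.50 to 0.02.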

Other observations

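Among the lipid genes outside the list, 5 with lower values at 20 mg/kg than with vehicle are given here. They were chosen after their values were seen, and none passed the limma test. PLIN2, a coat protein of lipid droplets, read 1000 and 1011 with vehicle, 278.7 and 324.4 after 4 mg/kg, and 303.6 and 164.7 after 20 mg/kg. Both doses lay below vehicle without overlap, with log2 changes of -1.74 (adjusted p = 0.171) and -2.17 (adjusted p = 0.0623). MGLL, a lipase that releases fatty acids from monoacylglycerol, read 4612 and 5751, then 3105 and 3350, then 2895 and 2969, changes of -0.68 and -0.81 (adjusted p = 0.167 and 0.0623). VLDLR, a lipoprotein receptor, gave -0.44 and -0.72 (adjusted p = 0.24 and 0.0765). GPAT3, an acyltransferase of glycerolipid synthesis, read 69.79 and 57.16 with vehicle, 57.97 and 93.6 after 4 mg/kg, and 23.82 and 9.27 after 20 mg/kg, with a change of -2.09 at the higher dose (SE 0.570, adjusted p = 0.142). PLIN3, another droplet coat protein, gave -0.28 and -0.77 (adjusted p = 0.399 and 0.0672).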
